A study of Mus musculus with 6 samples.

Results

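The genes described here are 9 regulators and markers of the primitive endoderm, taken by symbol from the 6 count files: Gata4, Gata6, Sox17, Sox7, Foxa2, Dab2, Pdgfra, Cubn and Amn. All 9 were among the 23238 gene symbols in the files. The cells were mouse embryonic stem cells (strain 129/Ola) in 2 stable lines with 3 libraries each. The EWS-OCT4 cells expressed EWS-OCT4A-GFP, in which the Ewing sarcoma protein EWS is joined to isoform A of OCT-4 and a GFP tag. The EGFP cells were the control and expressed EGFP alone. Both lines were made from cells that the labels call Niwa, were grown with LIF, and received doxycycline at 1 µg/ml, which lowers endogenous OCT-4. No library without doxycycline was analysed here, so rose and fell describe EWS-OCT4 cells relative to EGFP cells, and the fusion and any other difference between the 2 stable lines cannot be told apart. Nothing in the labels says that libraries of 1 line are separate cultures, so p-values cover only the variation among these libraries, and it may be technical.

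Primitive endoderm is the layer of the early embryo that forms beside the epiblast and later gives the visceral and parietal endoderm of the yolk sacs. GATA6 is needed to start the lineage, PDGFRA is an early receptor on its cells, and SOX17, GATA4 and SOX7 follow as it matures. Forced expression of GATA4 or GATA6 turns mouse embryonic stem cells into endoderm-like cells. DAB2, cubilin and amnionless belong to the uptake machinery of the mature visceral endoderm. Loss of OCT-4 from stem cells is known to lead to trophoblast, the other extraembryonic lineage, in which some of these genes are also used.

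The 9 genes did not move as 1 group. Gata6, Dab2 and Pdgfra fell in the EWS-OCT4 cells, Gata4 rose, and Amn did not pass the test. Sox17, Sox7 and Cubn were near zero in both lines, with a mean under 1 CPM (tag counts scaled to a common library size) in each. Foxa2 was near zero in the EWS-OCT4 cells and averaged 1.02 CPM in the EGFP cells. By the same limit Pdgfra was also near zero in the EWS-OCT4 cells alone. Gata4 and Amn were near zero in the EGFP cells alone, with Amn just under the limit at 0.963 CPM.

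The lines differed in most genes, which sets the background for these counts. Of 13467 genes that passed the low-count filter, 67.4% passed edgeR's quasi-likelihood test at an adjusted p of 0.05 (33.3% of all tested genes as higher in EWS-OCT4 cells and 34.1% as lower), with a median log2 difference of -0.004 over all tested genes. For 72.7% of tested genes the libraries of the lines did not overlap. Pou5f1, the OCT-4 gene that doxycycline lowers, was at 2.21 ± 0.719 CPM in EWS-OCT4 cells and 0.644 ± 0.269 CPM in EGFP cells, and whether the fusion adds tags to it is not known. Libraries held 10978025 to 12281444 counts in the EWS-OCT4 cells and 13239383 to 14935887 in the EGFP cells. Library 3 of each line stood apart from the other two. Its chi-square over the degrees of freedom was 32.0 and 32.3 in EWS-OCT4 cells and 23.7 and 25 in EGFP cells, whereas libraries 1 and 2 gave 4.21 and 3.96. Of the 9 genes, 5 passed the filter (Gata4, Gata6, Dab2, Pdgfra and Amn) and 4 did not (Sox17, Sox7, Foxa2 and Cubn). Gata4, Gata6, Pdgfra and Amn passed it only through the line in which they were higher, so how many of the tested genes were called is not a result about the group.

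Levels below are in CPM scaled by TMM, with n = 3 libraries per line, and log2 differences are EWS-OCT4 over EGFP and carry a standard error (SE). Bulk RNA cannot tell fewer cells of a type from less RNA in each cell. The kit reads transcript 3′ ends, so a gene's level is a number of tags and is not divided by its length.

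**Figure D1:**
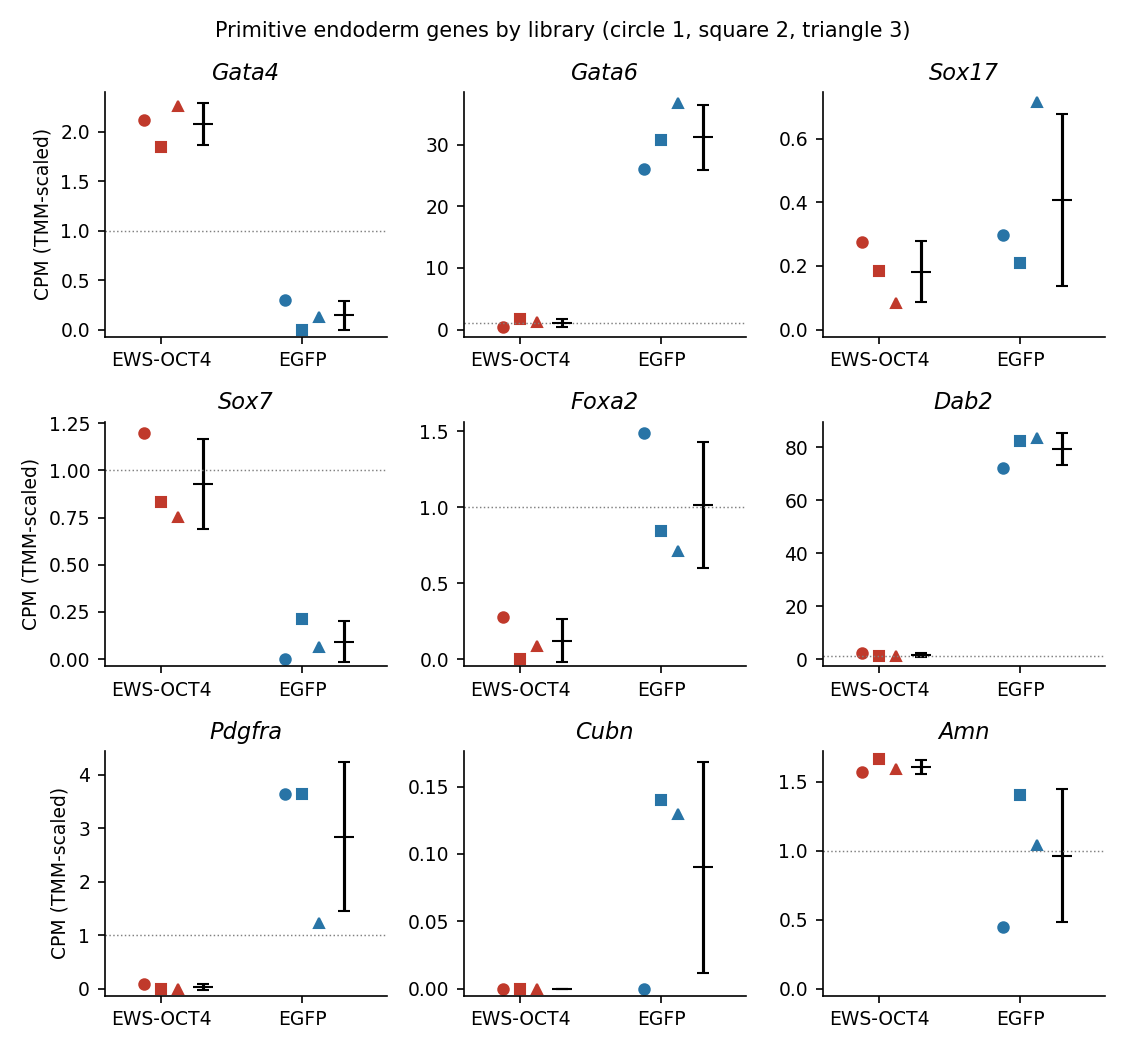
Level of each gene in each library, in TMM-scaled CPM on a linear axis that differs between panels, with EWS-OCT4 libraries in red and EGFP libraries in blue. The bar beside the points is the mean with its SD (n = 3), and the dotted line marks 1 CPM. Gata6, Dab2, Pdgfra and Foxa2 sit lower in every EWS-OCT4 library, whereas Gata4, Sox7 and, by a small margin, Amn sit higher.

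The GATA factors moved in opposite directions. Gata6 encodes the zinc finger factor that starts the lineage and is annotated on chromosome 18 (11052064 to 11085635, plus strand, GENCODE M21 on GRCm38, as for all genes below). It had 4, 18 and 14 counts in the EWS-OCT4 libraries, against 350, 438 and 565 counts in the EGFP libraries. These were 0.369, 1.66 and 1.17 CPM in the EWS-OCT4 cells, against 26.1, 30.7 and 36.7 CPM in the EGFP cells. All 3 EWS-OCT4 libraries lay far below the lowest EGFP library. The mean was 1.07 ± 0.653 CPM in the EWS-OCT4 cells and 31.2 ± 5.33 CPM in the EGFP cells (SD, n = 3 each), a log2 difference of -4.85 (SE 0.37, adjusted p = 1.8e-06 by edgeR). A fall at least as large was seen in 3.06% of all tested genes.

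Gata4, the sister factor on chromosome 14 (63198922 to 63271692, minus strand), rose. It had 23, 20 and 27 counts in the EWS-OCT4 libraries, against 4, 0 and 2 counts in the EGFP libraries. The lines did not overlap, but both lay low: the mean was 2.08 ± 0.213 CPM in the EWS-OCT4 cells and 0.143 ± 0.149 CPM in the EGFP cells (log2 difference 3.80, SE 0.72, adjusted p = 0.00091 by edgeR). The EGFP counts are few, and without EGFP replicate 1, which held 4 of the 6, the difference was 4.75. A rise at least as large was seen in 4.08% of all tested genes.

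The balance of the 2 factors was also taken within each library, where scaling cannot touch it. This ratio was chosen after the values had been seen. Gata4 made up 85.2%, 52.6% and 65.9% of the counts of both genes in the EWS-OCT4 libraries, against 1.13%, 0% and 0.353% in the EGFP libraries. Gata4 thus held the larger share in each EWS-OCT4 library and the smaller in each EGFP library.

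**Figure D2:**
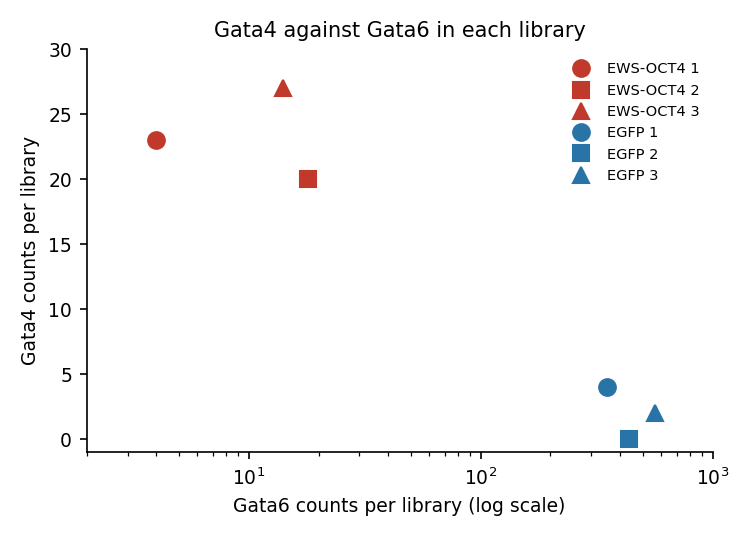
Counts of Gata4 (linear axis) against counts of Gata6 (log axis) in each library, red for EWS-OCT4 and blue for EGFP, with the marker shape giving the library number. The EWS-OCT4 libraries lie at 20 to 27 Gata4 counts and 4 to 18 Gata6 counts, and the EGFP libraries at 0 to 4 Gata4 counts and 350 to 565 Gata6 counts.

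The other transcription factors were at the edge of detection. Sox17, an HMG-box factor of endoderm that lies on chromosome 1 (4490931 to 4497354, minus strand), had 3, 2 and 1 counts in the EWS-OCT4 libraries and 4, 3 and 11 counts in the EGFP libraries. Apart from EGFP replicate 3, all libraries had 4 counts or fewer, and the lines overlapped. The mean was 0.182 ± 0.0963 CPM in the EWS-OCT4 cells and 0.408 ± 0.269 CPM in the EGFP cells. From pooled counts the depth-scaled ratio was 0.427 (exact 95% interval 0.139 to 1.12, counting error only), and without EGFP replicate 3 it was 0.706 (interval 0.196 to 2.45). Without EGFP replicate 2 it was 0.343 (interval 0.109 to 0.935), so which library is left out decides whether the interval of counting error includes 1. With no filter on low counts, edgeR gave a log2 difference of -1.16 (SE 1.15, adjusted p = 0.43).

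Sox7, a related SOX factor on chromosome 14 (63943673 to 63950732, plus strand), had 13, 9 and 9 counts in the EWS-OCT4 libraries and 0, 3 and 1 counts in the EGFP libraries. Every EWS-OCT4 library was above every EGFP library, at means of 0.928 ± 0.237 CPM in the EWS-OCT4 cells and 0.0917 ± 0.108 CPM in the EGFP cells. Its mean in the EWS-OCT4 cells lies just under the limit of 1 CPM. The ratio from pooled counts was 9.93 (exact 95% interval 3.51 to 38.7, counting error only), and 26.6 without EGFP replicate 2 (interval 4.43 to 1083). With no filter on low counts, edgeR gave it a log2 difference of 3.18 (SE 1.08, adjusted p = 0.020).

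Foxa2, a forkhead factor of both extraembryonic and definitive endoderm on chromosome 2 (148042877 to 148046969, minus strand), had 3, 0 and 1 counts in the EWS-OCT4 libraries and 20, 12 and 11 counts in the EGFP libraries. The lines did not overlap. The mean was 0.120 ± 0.142 CPM in the EWS-OCT4 cells and 1.02 ± 0.416 CPM in the EGFP cells, just over the limit for near zero. The ratio from pooled counts was 0.119 (exact 95% interval 0.0311 to 0.328, counting error only), and without EWS-OCT4 replicate 1 it was 0.0440 (interval 0.00109 to 0.259). With no filter, edgeR gave a log2 difference of -2.999 (SE 1.003, adjusted p = 0.019). Sox7 and Foxa2 both missed the filter, so neither is counted as called.

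Pdgfra encodes the alpha receptor for platelet-derived growth factor, a surface protein used to sort primitive endoderm cells, and lies on chromosome 5 (75152292 to 75198215, plus strand). It had 1, 0 and 0 counts in the EWS-OCT4 libraries, against 49, 52 and 19 counts in the EGFP libraries. The EWS-OCT4 libraries held 1 count in all, and EGFP replicate 3 held 0.338 times the mean level of EGFP replicates 1 and 2. The mean was 0.0307 ± 0.0532 CPM in the EWS-OCT4 cells and 2.84 ± 1.39 CPM in the EGFP cells. The depth-scaled ratio of 1 count to 120 was 0.0107 (exact 95% interval 0.000268 to 0.0607, counting error only), and edgeR's adjusted p was 0.00023. Without EWS-OCT4 replicate 1, which held the 1 count, the fitted log2 difference was -8.23 in place of -6.17. A fitted value against so few counts depends on the prior count.

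Dab2 encodes a clathrin adaptor that binds the tails of the endocytic receptors of visceral endoderm, and lies on chromosome 15 (6299788 to 6440712, plus strand). It had 25, 12 and 14 counts in the EWS-OCT4 libraries, against 970, 1176 and 1285 counts in the EGFP libraries. These were 2.30, 1.11 and 1.17 CPM in the EWS-OCT4 cells, against 72.3, 82.4 and 83.5 CPM in the EGFP cells, with a wide gap between the lines. The mean was 1.53 ± 0.672 CPM in the EWS-OCT4 cells and 79.4 ± 6.19 CPM in the EGFP cells, a log2 difference of -5.70 (SE 0.25, adjusted p = 6.6e-08 by edgeR). A fall at least as large was seen in 2.21% of all tested genes.

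Cubn and Amn together encode 1 receptor: cubilin is the large outer protein that binds ligands, and amnionless anchors it in the membrane. Cubn (chromosome 2, 13276338 to 13491813, minus strand) had 0 counts in all EWS-OCT4 libraries and 0, 2 and 2 counts in the EGFP libraries. Both lines were under the floor of 3 counts per library, 0.252 to 0.277 CPM in the EWS-OCT4 cells and 0.195 to 0.224 CPM in the EGFP cells, so no fold is given. The 3′ end of Cubn is overlapped by Gm13270 on the opposite strand, and reads of both cannot be told apart if strand was not used.

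Amn (chromosome 12, 111271095 to 111276426, plus strand) had 17, 18 and 19 counts in the EWS-OCT4 libraries and 6, 20 and 16 counts in the EGFP libraries. Scaled for depth these were 1.57, 1.66 and 1.59 CPM in the EWS-OCT4 cells and 0.447, 1.40 and 1.04 CPM in the EGFP cells. The EWS-OCT4 values were close to each other and lay just above the highest EGFP value, whereas EGFP replicate 1 was low. The mean was 1.61 ± 0.0485 CPM in the EWS-OCT4 cells and 0.963 ± 0.482 CPM in the EGFP cells, a log2 difference of 0.73 (SE 0.50, adjusted p = 0.22 by edgeR) that did not pass the test. The line difference of Amn was larger than its SE but missed the threshold, which does not show that the lines were equal. Its libraries did not overlap, as was so for 72.7% of tested genes. From pooled counts the depth-scaled ratio was 1.648 (exact interval 1.081 to 2.528, counting error only). Without EGFP replicate 1 it was 1.324 (interval 0.8525 to 2.078), and the interval lay above 1 with any other library left out.

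**Figure D3:**
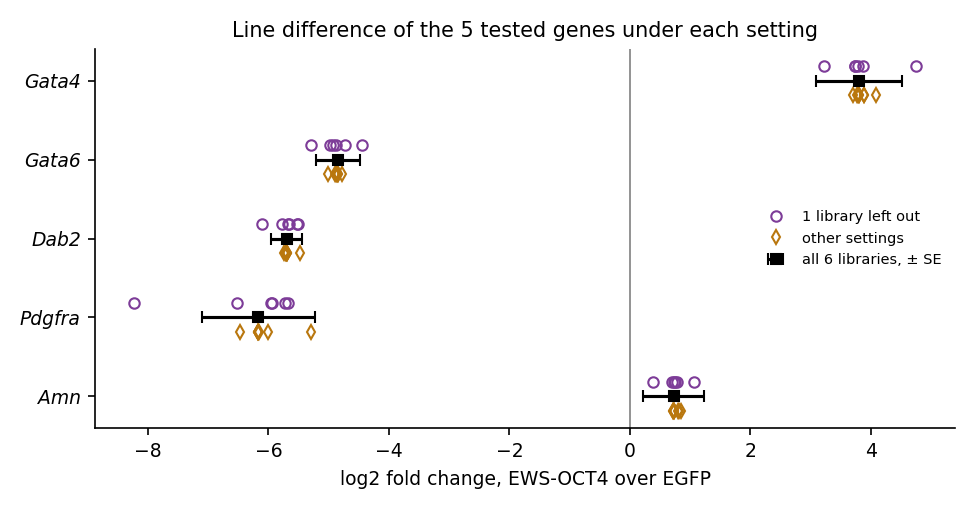
Log2 difference, EWS-OCT4 over EGFP, of the 5 genes that passed the filter. Black squares are the fit to all 6 libraries with its SE, purple circles leave out 1 library, and orange diamonds are the other settings tried. Dab2, Gata6 and Pdgfra stay below 0 and Gata4 above 0 in each fit drawn, while Amn lies between 0.38 and 1.07.

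Summed over all 9 genes, the EWS-OCT4 libraries held 89, 79 and 85 counts, against 1403, 1706 and 1912 counts in the EGFP libraries. Dab2 and Gata6 made up 32.6%, 38.0% and 32.9% of these counts in the EWS-OCT4 libraries, whereas they made up 94.1%, 94.6% and 96.8% in the EGFP libraries. Of the 9 genes, 8, 6 and 7 had at least 1 count in the EWS-OCT4 libraries and 7, 8 and 9 in the EGFP libraries.

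The promoters of Dab2 and Pdgfra, 2 of the 3 genes that fell, are shown so that their sequence can be read next to these values. RefSeq start sites (GRCm38.p6) gave windows of 300 bases, from 250 before to 50 after the start, for 5 of the 9 genes: Foxa2, Dab2, Pdgfra, Cubn and Amn. Windows of Gata4, Gata6, Sox17 and Sox7 were not used here. Searched on both strands were AGATAA (bound by GATA factors), ATTGT (SOX factors), TGTTTAC (FOXA factors) and ATGCAAAT (the octamer bound by OCT-4). Capitals mark an exact match to these letters, and variant forms of the motifs were not searched. The Dab2 window is chr15:6299539-6299838 and the Pdgfra window is chr5:75152001-75152300, both on the plus strand.
Dab2: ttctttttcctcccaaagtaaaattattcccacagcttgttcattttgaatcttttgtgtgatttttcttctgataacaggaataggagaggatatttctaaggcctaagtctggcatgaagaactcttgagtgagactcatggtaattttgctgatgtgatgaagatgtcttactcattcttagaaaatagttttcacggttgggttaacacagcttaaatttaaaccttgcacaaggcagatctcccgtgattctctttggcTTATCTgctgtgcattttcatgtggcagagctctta
Pdgfra: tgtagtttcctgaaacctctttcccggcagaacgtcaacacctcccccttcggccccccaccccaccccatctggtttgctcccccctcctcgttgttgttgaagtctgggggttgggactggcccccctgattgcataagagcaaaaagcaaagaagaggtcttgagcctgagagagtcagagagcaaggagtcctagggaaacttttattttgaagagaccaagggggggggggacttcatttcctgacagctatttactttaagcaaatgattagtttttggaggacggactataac
The Dab2 window holds 1 match to AGATAA, on the minus strand and starting 14 bases after the start site. The Pdgfra window holds no match to any of the 4 motifs. A second Dab2 start site, at chr15:6386498-6386797, and the windows of Cubn and Amn also hold none, while 1 of 3 Foxa2 windows holds AGATAA. Over all 32841 windows, 11.2% hold AGATAA, 31% hold ATTGT, 3.65% hold TGTTTAC and 1.74% hold ATGCAAAT. A match describes letters in this window and does not show a bound site.

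Relatives of the GATA, SOX and FOXA members were followed next. Of 9 relatives and GATA cofactors, 5 were tested, of which 4 fell and 1 rose (median log2 difference -2.80, against -0.004 over all tested genes). Over all tested genes, 34.1% were called lower and 33.3% higher, which is the background for this and every list below. Some list genes, such as Gata3, passed the filter only through 1 line, so such counts are not a result about a list. Gata3 and Gata2, which act in trophoblast, fell (log2 differences -9.51 and -7.12), to 0.453 ± 0.253 and 3.02 ± 1.6 CPM in the EWS-OCT4 cells, against 332 ± 26.7 and 418 ± 42.7 CPM in the EGFP cells. Gata1, the factor of red blood cells, fell by 2.80, to 1.78 ± 0.832 CPM in the EWS-OCT4 cells, against 12.4 ± 1.01 CPM in the EGFP cells. Zfpm1, a cofactor of GATA1, fell by 2.08. Foxa3, a forkhead factor of endoderm, rose to 6.22 ± 2.40 CPM in the EWS-OCT4 cells, against 0.910 ± 0.113 CPM in the EGFP cells (log2 difference 2.77, SE 0.41, adjusted p = 0.00018 by edgeR). Gata5 and Sox18 were at or near 0, with 3 and 1 counts in all in the EWS-OCT4 cells and 1 and 0 counts in the EGFP cells. Among the tested GATA genes, Gata4 was thus the one that rose.

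Genes of the tissues that primitive endoderm forms moved in both directions. Of 16 visceral endoderm genes, 6 were tested, of which 4 fell and 2 rose (median -3.50). Cited1, a transcriptional coactivator, fell to 0.302 ± 0.218 CPM in the EWS-OCT4 cells, against 27.4 ± 10.4 CPM in the EGFP cells. Apoa1, an apolipoprotein, fell to 0.355 ± 0.0725 CPM in the EWS-OCT4 cells, against 4.86 ± 0.778 CPM in the EGFP cells. Rbp4 and Trf, which carry retinol and iron, rose: Rbp4 had 183 counts in the EWS-OCT4 cells and 3 in the EGFP cells, so that the ratio at equal depth was 78.2 (26.3 to 383, exact 95% interval). Trf stood at 9.72 ± 0.706 CPM in the EWS-OCT4 cells and 0.392 ± 0.282 CPM in the EGFP cells. Bmp2 had 1 count in the EWS-OCT4 cells and 78 in the EGFP cells (ratio 0.0164, interval 0.000411 to 0.0943). The defining genes of visceral endoderm Afp and Ttr missed the filter, with 0 and 26 counts in the EWS-OCT4 cells and 13 and 15 in the EGFP cells, and all 26 Ttr counts were in EWS-OCT4 replicate 1. Hnf4a, the nuclear receptor of visceral endoderm, also missed it, with 19 counts in the EWS-OCT4 cells and 28 in the EGFP cells. The summed level of the list was 18.1 to 24.1 CPM in the EWS-OCT4 cells and 56.1 to 59.2 CPM in the EGFP cells. Leaving out 1 library moved 3 of these fitted log2 differences by more than 1.5-fold: Trf was 5.26 without EGFP replicate 2 (4.59 with it), Cited1 was -7.20 without EWS-OCT4 replicate 2 (-6.47 with it), and Bmp2 was -7.55 without EWS-OCT4 replicate 1 and -4.73 without EGFP replicate 3 (-5.49 with them). The median also rested on single libraries, at -1.36 without EWS-OCT4 replicate 3, -1.90 without EGFP replicate 1 and -2.00 without EGFP replicate 2, fits in which 8 genes of the list were tested, while 4 fell and 2 rose in each.

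Of 14 parietal endoderm and basement membrane genes, 13 were tested, of which 10 fell and 3 rose (median -2.17). Plat, the tissue plasminogen activator, fell to 0.693 ± 0.300 CPM in the EWS-OCT4 cells, against 91.0 ± 37.0 CPM in the EGFP cells. The collagen chain gene Col4a2 fell to 7.21 ± 1.47 CPM in the EWS-OCT4 cells, against 106 ± 26.9 CPM in the EGFP cells. Lama1 and Lamc1, which encode laminin chains, rose, as did Fst, the activin-binding follistatin. Lama1 stood at 63.8 ± 20.6 CPM in the EWS-OCT4 cells and 3.79 ± 1.54 CPM in the EGFP cells (log2 difference 4.07, SE 0.33). The call of Fst was lost without EGFP replicate 2 (adjusted p = 0.053 by edgeR).

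Of 12 definitive and anterior endoderm genes, 8 were tested, of which 4 fell, 3 rose and 1 did not pass (median -0.65, and -0.95 to -0.37 with 1 library left out). Hhex, a homeobox gene of anterior endoderm, rose to 14.7 ± 2.69 CPM in the EWS-OCT4 cells, against 0.461 ± 0.166 CPM in the EGFP cells. Otx2, a homeobox gene that epiblast also uses, stood at 27.5 ± 6.67 CPM in the EWS-OCT4 cells and 0.238 ± 0.413 CPM in the EGFP cells. Dkk1, a secreted WNT inhibitor, had 1 count in the EWS-OCT4 cells and 409 in the EGFP cells (ratio 0.00313, exact 95% interval 7.9e-05 to 0.0176). Single libraries moved these fitted log2 differences: Otx2 was 11.39 without EGFP replicate 3 (6.71 with it), and Dkk1 was -9.93 without EWS-OCT4 replicate 1 and -7.21 without EGFP replicate 3 (-7.88 with them). Cer1 and Gsc, which mark anterior and early definitive endoderm, had 1 and 2 counts in the EWS-OCT4 cells and 2 and 2 in the EGFP cells.

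The partners of the surface members were measured in the same way. Of 5 PDGF ligands and the sister receptor, 4 were tested, of which 2 fell and 2 rose. The ligand genes Pdgfa and Pdgfb fell (log2 differences -1.66 and -2.99), and the ligand gene Pdgfc rose by 4.24, to 16.9 ± 3.41 CPM in the EWS-OCT4 cells, against 0.889 ± 0.388 CPM in the EGFP cells. Pdgfrb, the beta receptor, stood at 5.50 ± 0.890 CPM in the EWS-OCT4 cells and 2.25 ± 1.11 CPM in the EGFP cells (log2 difference 1.28, SE 0.42, adjusted p = 0.019 by edgeR). That call was lost without EWS-OCT4 replicate 2 and without EGFP replicate 1, where the adjusted p reached 0.063. Pdgfd had no count in any library.

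All 15 partners of cubilin and megalin in endocytosis were tested, of which 11 fell, 2 rose and 2 did not pass (median -1.20). Of all tested genes, 34.1% fell and 33.3% rose by the same test. Lrp2, which encodes the megalin receptor that takes up cargo with cubilin, fell to 2.14 ± 0.854 CPM in the EWS-OCT4 cells, against 20.6 ± 6.52 CPM in the EGFP cells (log2 difference -3.27, SE 0.35, adjusted p = 1.8e-05 by edgeR). Cd320, the cell receptor for the vitamin B12 carrier, fell by 2.66, and Dab1, the sister adaptor of Dab2, fell by 2.42. The adaptor chain Ap2a1 and the motor protein Myo6 rose, and the call of Myo6 was lost without EWS-OCT4 replicate 3 and without each of the EGFP replicates (adjusted p up to 0.10). Tcn2 and Ap2s1 were the 2 that did not pass, and Ap2s1 passed, as a fall, in the libraries numbered 1 and 2 alone.

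**Figure D4:**
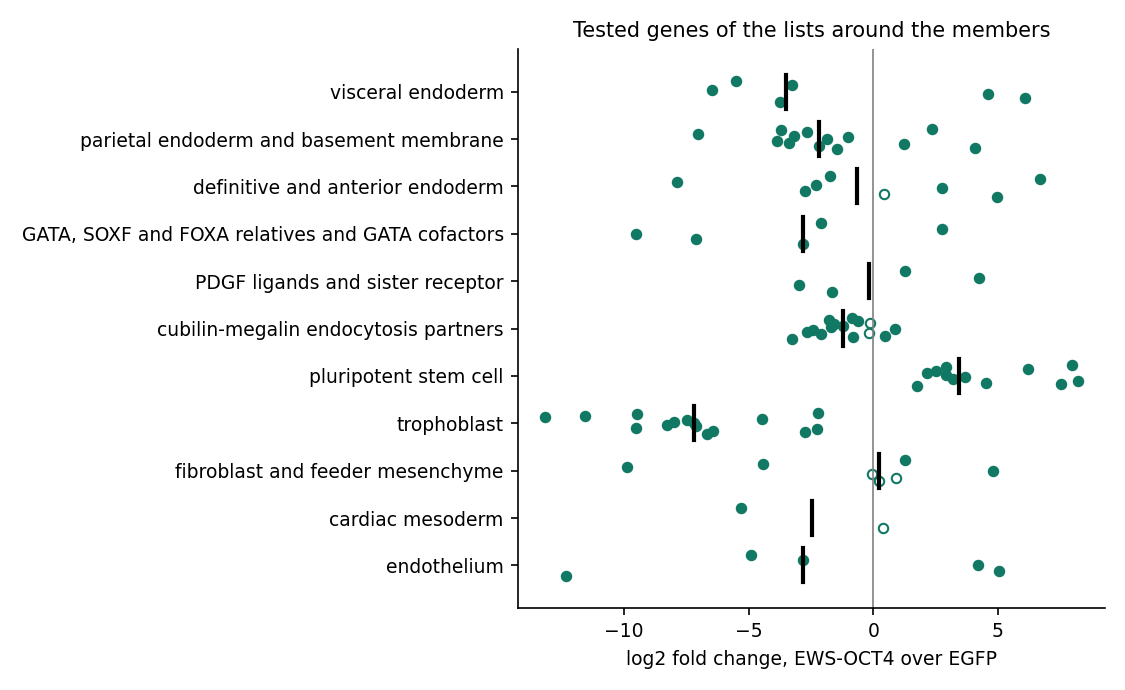
Log2 difference, EWS-OCT4 over EGFP, of each tested gene in the lists around the members. Filled circles passed an adjusted p of 0.05, open circles did not, and the bar is the median of the tested genes of a list. Both extraembryonic endoderm lists hold genes on either side of 0, the 15 trophoblast genes lie below 0 and the 12 pluripotent stem cell genes lie above 0.

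Markers of other cell types also differed between the lines. The 12 pluripotent stem cell genes all rose (median 3.44), with a summed level of 5935 to 6482 CPM in the EWS-OCT4 cells and 466 to 626 CPM in the EGFP cells. Sox2, Esrrb and Tdgf1 were at 1333 ± 29.9, 418 ± 15.3 and 538 ± 33.9 CPM in the EWS-OCT4 cells, against 7.02 ± 4.84, 1.38 ± 0.358 and 2.12 ± 0.304 CPM in the EGFP cells. These defining genes of the labelled cell type, the 3 of the list that changed most, were thus low in the EGFP cells. The other genes of the list ranged there from 0.112 CPM for Prdm14 to 167 CPM for Dppa5a, with Nanog at 23.4 and Tfcp2l1 at 129 CPM. Without EWS-OCT4 replicate 3, Pou5f1 lost its call (adjusted p = 0.054 by edgeR), and the log2 difference of Sox2 was 8.29 without EGFP replicate 3 (7.55 with it). The 15 trophoblast genes all fell (median -7.21, or -6.78 with the 3 genes at 0 in EWS-OCT4 cells placed at their bounds). Their summed level was 258 to 291 CPM in the EWS-OCT4 cells and 5590 to 6328 CPM in the EGFP cells. These 3 were Plac1, Prl3d1 and Tpbpa. Plac1 was at least 336-fold lower, and Prl3d1 at least 110-fold lower, by line means with a floor of 3 counts per library. The Prl3d1 bound rests on EGFP replicates 1 and 2 (534 and 625 counts), since EGFP replicate 3 held 73. The call of Gcm1 was lost without EWS-OCT4 replicate 1 or 3 and without EGFP replicate 3 (adjusted p up to 0.13), with limma-voom, and in the libraries numbered 1 and 2 alone. The part of trophoblast or stem cell content in the falls of Gata6, Dab2 and Pdgfra and the rise of Gata4 was not tested.

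Markers of other cell types that use some of these genes were also measured, and a few genes stand in more than 1 list (Lrp2, Eomes, Gata2, Gata3, Foxa1, Foxa3, Pdgfrb and Sox18). Of 11 fibroblast and feeder genes, 7 were tested, of which 2 rose, 2 fell and 3 did not pass. Their summed level was 25.5 to 35.8 CPM in the EWS-OCT4 cells and 24.0 to 39.1 CPM in the EGFP cells, and Postn was at 0 in the EWS-OCT4 cells. The collagen genes Col1a1, Col1a2 and Col3a1 did not pass, and stood at 2.54 ± 1.74, 1.40 ± 0.900 and 1.20 ± 1.76 CPM in the EWS-OCT4 cells and 2.18 ± 0.662, 0.726 ± 0.214 and 1.23 ± 0.559 CPM in the EGFP cells. EWS-OCT4 replicate 1 held most of these counts in its line for Col3a1 (35, 4 and 0 counts in the EWS-OCT4 libraries and 21, 22 and 9 in the EGFP libraries). Without it the log2 difference of Col3a1 was -2.71 in place of -0.05, and that of Col1a1 was -0.48 in place of 0.22. Thy1, a surface protein, and Pdgfrb were the 2 that rose, and Postn and the actin gene Acta2 the 2 that fell. Thy1 had a log2 difference of 4.81 (5.43 without EGFP replicate 1) and Acta2 of -4.41 (-6.44 without EWS-OCT4 replicate 1). Without EWS-OCT4 replicate 2 Pdgfrb lost its call, so that 1 gene rose. Of 8 cardiac mesoderm genes, 2 were tested, of which Tnnt2 fell and Mef2c did not pass, and the summed level was 1.76 to 11.98 CPM in the EWS-OCT4 cells and 5.96 to 9.81 CPM in the EGFP cells. The highest of these sums is that of EWS-OCT4 replicate 1, since Mef2c had 98, 2 and 5 counts in the EWS-OCT4 libraries and 18, 18 and 70 counts in the EGFP libraries. Without EWS-OCT4 replicate 1, Mef2c had a log2 difference of -2.93 in place of 0.41 and both tested genes fell. Without EWS-OCT4 replicate 3 or any 1 of the EGFP replicates, 3 or 4 genes of the list were tested, of which 1 rose and 1 fell. Tbx5 and Hand2 were at 0 in the EWS-OCT4 cells, and Mesp1 was at 0 in the EGFP cells. All 3 Tnnt2 counts of the EWS-OCT4 cells were in replicate 1, against 171 counts in the EGFP cells (ratio 0.0225, exact 95% interval 0.00459 to 0.0668), and without that library the fitted log2 difference was -8.70 in place of -5.31. Of 9 endothelial genes, 5 were tested, of which 3 fell and 2 rose, with a summed level of 90.1 to 136 CPM in the EWS-OCT4 cells and 45.5 to 76.7 CPM in the EGFP cells. Pecam1, which mouse stem cells also express, rose to 106 ± 24.4 CPM in EWS-OCT4 cells, against 3.22 ± 0.826 CPM in EGFP cells. The VEGF receptor gene Flt1 fell, with a log2 difference of -4.90 (-5.71 without EWS-OCT4 replicate 1). Cdh5 and Emcn were at 0 in the EWS-OCT4 cells, and Sox18 and Emcn in the EGFP cells. Whether these cells contributed to the levels of Pdgfra, Gata4, Sox7 or Sox17 was not tested.

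For each member with at least 1 CPM in a line, the 2 genes whose level over the 6 libraries lay nearest in shape were found. The measure was the Euclidean distance between centred log2 CPM profiles with a prior count of 2, which narrows differences at low counts. Fitted log2 differences of neighbours could thus be close (Phldb3 -4.89, Gata6 -4.85) or not (Vtcn1 -7.61, Dab2 -5.70). Tmcc2 and Ppp1r3c lay nearest to Gata4 (distances 0.538 and 0.556), and Cdcp1 and Phldb3 to Gata6 (0.610 and 0.829). For Dab2 they were Vtcn1 and Slc6a14 (0.408 and 0.433), for Pdgfra Itpkb and Abcb9 (0.504 and 0.508), for Foxa2 Slc44a3 and Nudt6 (0.495 each), and for Amn Mak and Zfp956 (0.314 and 0.365). The neighbours of Pdgfra were, like it, low in EGFP replicate 3, which follows from their choice by nearness to its profile. Itpkb had 4, 2 and 1 counts in EWS-OCT4 libraries, against 82, 86 and 42 in EGFP libraries. Abcb9 had 7, 3 and 2 counts in EWS-OCT4 libraries, against 114, 143 and 49 in EGFP libraries. Such profiles rest mainly on the difference between the lines, and 6 libraries in 2 lines tell little else.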

How the data were processed

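The authors deposited whole-number counts for each gene symbol and library, and no scaling was found in them. Per the labels' protocols, 500 ng of total RNA in Trizol went into a Lexogen QuantSeq kit. Bowtie2, edgeR and mm10 are named, without versions or roles, per the submitters' processing notes. How tags were counted, on which annotation and whether by strand is not given in the sources used here. The 23282 lines of a file gave 23238 symbols once repeated symbols (35) were summed.

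Analysis used edgeR 4.0.16 with TMM scaling. The filter filterByExpr asked for 0.784 CPM before TMM scaling (10 counts at the median library size) in 3 libraries, and 15 counts in all. It kept 13467 genes. The lines were compared by the robust quasi-likelihood F test (2-sided), and p-values were adjusted over these genes by Benjamini-Hochberg. SE is the log2 difference divided by the square root of F. The fit was tested on simulated data. 1 count stood for 0.0650 to 0.0923 CPM. Ratios of pooled counts have exact conditional 95% intervals, and a floor of 3 counts per library was used for genes at 0. Both cover counting error only. No gene list was tested as a set. In each list the rule named up to 3 called genes, those that changed most, and others are named where a count of 5 or fewer or a role called for it, after their values were seen. The genes and lists were chosen with earlier results of these data known.

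Alternatives were leaving out each library, libraries numbered 1 and 2 alone, a replicate block, DESeq2 size factors, library sizes without Rn45s, other filters, limma-voom (limma 3.58.1) and DESeq2 1.42.0.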

Additional observations from a re-analysis of the deposited data

How the results depend on the processing

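The calls of Gata4, Gata6, Dab2 and Pdgfra and the missed threshold of Amn kept their direction and side under all 14 alternatives of the fit. With 1 library left out, the log2 difference lay between 3.23 and 4.75 for Gata4, -5.29 and -4.45 for Gata6, -6.10 and -5.52 for Dab2, -8.23 and -5.67 for Pdgfra, and 0.38 and 1.07 for Amn. The number of genes called over all genes was 9073, and 8122 to 10240 over these alternatives, within 1.5 times. At a stricter adjusted p of 0.01 the main fit called 7386. The count of members near zero in both lines was 3, and 2 to 4 with 1 library left out: without EGFP replicate 1 Foxa2 joined, and without EWS-OCT4 replicate 3 Sox7 left. It was 2 below 0.5 CPM (Sox17 and Cubn) and 5 below 2 CPM (with Foxa2 and Amn), since these levels lie close to the limit. Deviations from the line mean correlated over genes at r of 0.0402, 0.052 and 0.152 between same-numbered libraries. Between library 1 of one line and library 2 of the other, r was 0.0753 and 0.0755. Between library 3 and the other numbers, r was -0.102 to -0.0903. With 3 libraries per line, these values cannot tell whether the numbers pair the samples. A fit with replicate number as a block called 8968 genes and gave 3.90 for Gata4, -4.90 for Gata6, -5.71 for Dab2, -6.17 for Pdgfra and 0.82 for Amn. Depth limits Sox17, Sox7, Foxa2 and Cubn, which missed the filter. For Foxa2, EGFP replicate 3 (11 counts) was the only EGFP library under the limit.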
